A study of Mus musculus with 15 samples.

Results

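The genes described here belong to the families of transferases best known for attaching glucuronic acid, glutathione or sulfate to drugs, toxins, hormones and bile constituents. Not every member does so: Ugt8a, taken in by its name, transfers galactose. Members were all mouse genes whose symbol begins with Ugt and a digit, with Gst, a letter and a digit, or with Sult and a digit, leaving out names that mark pseudogenes. The rule found 63 genes among the 37620 identifiers of the count tables, of which 22 were Gst, 20 Sult and 21 Ugt genes. The rule used names only, no measured value.

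The 15 libraries were made from ileum, the distal end of the small bowel, of adult mice. Animals labelled mutant were Rfx6f/f; Vilin-CreERT2, so that both copies of Rfx6, which encodes a transcription factor of hormone-producing gut cells, could be deleted by a tamoxifen-activated recombinase. That recombinase is driven by the Villin promoter, which acts throughout the intestinal epithelium and not in one cell type of it. Control animals were Rfx6f/f or Rfx6f/+ with no recombinase named, and the protocol gives tamoxifen by gavage to all adult mice, so the animals labelled mutant also differ from the controls by the recombinase itself. At 8 days after tamoxifen there were 3 controls, all Rfx6f/f, and 4 mutants. At 3 months there were 4 controls (2 Rfx6f/f and 2 Rfx6f/+) and 4 mutants. Sex and exact age of the animals are not given in the sources used here.

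Conjugation makes a fat-soluble compound more soluble in water, so that it can leave the cell. UDP-glucuronosyltransferases (UGT) sit in the endoplasmic reticulum and use UDP-glucuronic acid. Glutathione S-transferases (GST) are mostly cytosolic and join glutathione to reactive compounds such as lipid aldehydes. Sulfotransferases (SULT) use the activated sulfate donor PAPS. In the small intestine these enzymes act mainly in absorptive cells (enterocytes) on material arriving from food and bile, and ABC-family pumps then export the conjugates. Several of their genes are known targets of the xenobiotic receptors AHR, PXR and CAR and of the oxidative stress regulator NRF2.

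The start regions of 4 members are printed because the results turn on these genes: Ugt1a1, Ugt8a and Gsta3 passed the test at 3 months, and Ugt2a3 varied widely between libraries at 8 days. Those of Sult1c2, which also passed at 3 months, and of Sult6b2, which also varied widely, are not printed because they lie wholly or in part within annotated transcripts. Each sequence is the 250 bases before the RefSeq start on GRCm38.p6, read 5′ to 3′ along the gene. Capitals mark matches, on either strand, to any of 4 motifs. The core of the AHR element was searched as GCGTG and the antioxidant response element as TGACNNNGC. One arm of the HNF1 site was searched as GTTAAT, and the site bound by GATA factors was searched for by its letters AGATAA.
Ugt1a1 chr1:88211709-88211958 (+): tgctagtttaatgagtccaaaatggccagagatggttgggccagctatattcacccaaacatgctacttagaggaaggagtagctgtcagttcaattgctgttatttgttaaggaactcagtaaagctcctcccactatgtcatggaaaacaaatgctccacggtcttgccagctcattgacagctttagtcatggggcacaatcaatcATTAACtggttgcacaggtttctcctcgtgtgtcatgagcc
Ugt8a chr3:125938653-125938902 (-): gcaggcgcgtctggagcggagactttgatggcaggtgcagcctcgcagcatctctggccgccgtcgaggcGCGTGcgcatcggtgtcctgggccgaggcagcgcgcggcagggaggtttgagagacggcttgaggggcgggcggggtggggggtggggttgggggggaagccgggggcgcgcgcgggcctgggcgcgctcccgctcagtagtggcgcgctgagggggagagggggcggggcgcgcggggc
Gsta3 chr1:21240335-21240584 (+): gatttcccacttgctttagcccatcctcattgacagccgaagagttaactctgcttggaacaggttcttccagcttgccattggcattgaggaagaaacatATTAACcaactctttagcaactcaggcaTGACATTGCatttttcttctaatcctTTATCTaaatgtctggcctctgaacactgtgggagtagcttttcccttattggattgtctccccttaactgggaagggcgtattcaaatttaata
Ugt2a3 chr5:87337196-87337445 (-): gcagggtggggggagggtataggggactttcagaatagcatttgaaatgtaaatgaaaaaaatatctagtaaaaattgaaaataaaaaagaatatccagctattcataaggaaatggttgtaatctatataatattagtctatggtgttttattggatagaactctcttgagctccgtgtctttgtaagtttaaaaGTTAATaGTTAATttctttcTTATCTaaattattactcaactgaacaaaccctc
Ugt2a3 held 2 matches to the HNF1 arm and 1 GATA site, and Gsta3 was the only one of these 4 with a match to the antioxidant response element. RefSeq start regions were at hand for 56 of the 63 members (67 regions). The HNF1 arm was in 20.9% of the members' regions against 6.43% of all 32851 regions of this length, and the GATA site in 17.9% against 9.99%. The AHR core was in 17.9% against 28.2%, and the antioxidant response element in 4.48% against 10.2%. These are matches of letters, not measured binding.

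Libraries held 30452485 to 54468586 counts in the 8-day set and 26078462 to 36270306 in the 3-month set, and the members held 0.141 to 0.201% of a library's counts. A gene at 3 counts, the limit that a count of 0 allows, stood at 0.0552 to 0.117 CPM (counts relative to the scaled library total, in the usual unit), for counting error only. CPM were scaled within each time, so levels set side by side across times are descriptions. Before the members, the targeted gene was checked. Rfx6 stood at 1.61, 1.35 and 1.55 CPM in the 8-day controls and at 1.8, 2.05, 1.57 and 1.43 CPM in the 8-day libraries labelled mutant. At 3 months it stood at 1.77, 1.6, 1.48 and 1.51 CPM in controls and at 3.4, 2.38, 2.37 and 2.31 CPM in libraries labelled mutant. Its counts over the whole gene were thus not lower in any group labelled mutant (log2 fold change 0.19 ± 0.18 SE, adjusted p = 0.867, at 8 days, and 0.72 ± 0.17, adjusted p = 0.0347, at 3 months), and they do not separate the deleted part from the rest. Of 12 enteroendocrine markers, 5 fell and 0 rose at 8 days, and 8 fell and 3 rose at 3 months. The sample titles carry a number each, but no label says whether it marks an animal, and litters are not given, so p-values measure the spread between these libraries. In this bulk tissue, fewer cells of a type and less RNA per cell cannot be told apart.

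The ileum expressed a few members of each family at high level, and most of the members without counts were Sult genes. Per kb of exon, the highest levels, averaged over the 15 libraries, were those of Gsto1 (123 CPM per kb), Ugt2b34 (114), Sult1d1 (67.7) and Sult1b1 (60.2). The others among the 3 highest of each family were Gstp1 at 26.2, Sult2b1 at 24.2, Gsta4 at 21.2, Ugt1a1 at 20 and Ugt1a7c at 13.5 CPM per kb. At the other end, 8 members (Sult2a1, Sult2a2, Sult2a3, Sult2a4, Sult2a5, Sult2a8, Sult3a1 and Sult3a2) had no count in any library, and 14 members had 3 counts or fewer in every library. All Sult genes of the 2a group that were measured, which include the hydroxysteroid and bile acid sulfotransferases of liver, were among these 14. Hepatocyte markers summed to 4.51 to 16.6 CPM over all libraries.

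**Figure D1:**
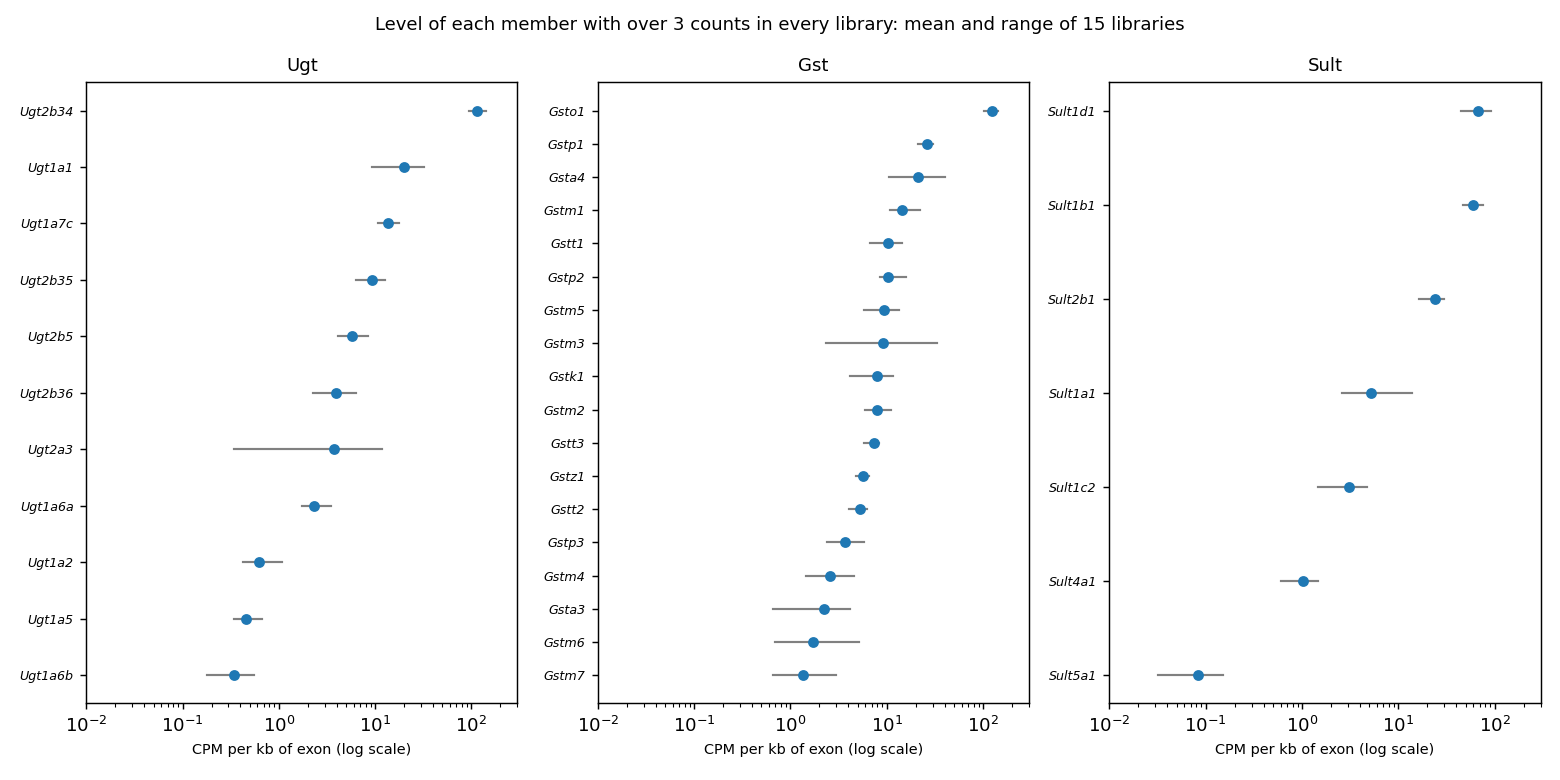
Level of each member with more than 3 counts in every library (11 Ugt, 18 Gst and 7 Sult genes), in CPM per kb of exon on a log axis. Points are means of 15 libraries and lines run from the lowest to the highest library: Ugt2a3 and Gstm3 have the longest lines among the genes above 3 CPM per kb, and Gsto1 and Ugt2b34 stand above 100.

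Ugt2b34 (ENSMUSG00000029260, chromosome 5), of the subfamily that glucuronidates steroids and bile acids, held the largest number of counts of any member. It stood at 467, 614 and 450 CPM in the 8-day controls and at 503, 491, 409 and 446 CPM in the 8-day libraries labelled mutant. At 3 months it stood at 519, 420, 499 and 608 CPM in controls and at 549, 466, 409 and 500 CPM in libraries labelled mutant. The groups overlapped at both times, and the log2 fold changes were -0.14 ± 0.12 SE (adjusted p = 0.843) at 8 days and -0.09 ± 0.13 (adjusted p = 0.671) at 3 months. Its highest library stood 1.5-fold above its lowest at 8 days and 1.49-fold at 3 months.

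The order by length of Ugt1a1 depends on how length is counted. The 9 Ugt1a genes lie in one cluster on chromosome 1, in which each gene has a first exon of its own and splices it to exons common to all. Only 385 of the 2224 exonic bases of Ugt1a1 belong to no other annotated gene, and per kb of those bases it reached 116 CPM, level with Ugt2b34 at 114. Between 52.1 and 79.8% of the 50-base stretches of each Ugt1a gene also occur in another gene. The counting mode is not given in the sources used here, so the share of common-exon reads in each Ugt1a count is uncertain. Copies also limit Gsta1 (90.5% of its 50-base stretches shared), Ugt2a2 (93.6%), Sult2a2 (62.1%), Gstp2 (54.3%) and Gsta2 (49.8%). Ugt2b5 (41.7%), Ugt2b38 (37.4%), Sult2a5 (34.5%), Gstp1 (33.7%), Sult2a1 (33.2%) and Gstm3 (28.8%) shared less. The Sult2a genes named here are among those with no count in any library.

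At 3 months, 4 of the 38 members tested differed between libraries labelled mutant and controls. Calls rest on edgeR's quasi-likelihood test, with p-values adjusted over all genes by Benjamini-Hochberg and a threshold of 0.05, and the other 25 members had too few counts to be tested. Ugt1a1 and Ugt8a were higher, and Gsta3 and Sult1c2 were lower, in the libraries labelled mutant. Ugt8a passed the count filter only through the libraries labelled mutant, so it had to differ to be tested and its call adds no support to the count. With it included, the 10.5% of members called is near the 9.28% of all 17085 genes tested that were called. With scaling by totals without the 20 most counted genes, 2 members were called higher and 1 lower, and 8.08% of all genes were called. In the fit with TMM scaling, the 2 higher calls stand against 4.96% of all genes called higher and the 2 lower calls against 4.32% called lower. The median log2 fold change was 0.06 over the members tested and 0.01 over all genes tested.

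Ugt1a1 (ENSMUSG00000089960), the enzyme that conjugates bilirubin, stood at 27.8, 20.5, 24.4 and 37.3 CPM in the 3-month controls. In the libraries labelled mutant it stood at 72.4, 47.6, 38.9 and 45.6 CPM. The groups did not overlap, although control 4 at 37.3 CPM came close to mutant 3 at 38.9 CPM. Its log2 fold change was 0.90 ± 0.23 SE (adjusted p = 0.0424). Leaving out 1 library ended the call in 6 of 8 cases (adjusted p 0.0551 to 0.112), the exceptions being control 4 and mutant 3. Against the 2 Rfx6f/f controls alone the value was 0.65 ± 0.26 (adjusted p = 0.272). At 8 days Ugt1a1 stood at 41.7, 57.3 and 52.2 CPM in controls and at 53.6, 51.5, 46.1 and 51.4 CPM in libraries labelled mutant, a log2 fold change of 0.01 ± 0.11 (adjusted p = 0.996). Set side by side, the 3-month controls were the low group of the 4, with a mean of 27.5 ± 7.2 CPM (SD, n = 4) against 50.4 ± 7.97 (n = 3), 50.7 ± 3.2 (n = 4) and 51.1 ± 14.6 (n = 4) in the others. Time after tamoxifen and cohort cannot be told apart in that comparison.

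The other Ugt1a genes tested at 3 months leaned the same way, without passing the test. All 6 tested Ugt1a genes had positive log2 fold changes, from 0.28 to 0.90 with a median of 0.36. Because these genes share exons, they are not 6 independent readings. Ugt1a7c (ENSMUSG00000090124), of the same cluster, stood at 55.7, 47.8, 54.4 and 60.9 CPM in 3-month controls and at 63.6, 66.8, 60 and 74.5 CPM in libraries labelled mutant. The groups overlapped only through mutant 3 at 60 CPM, and the log2 fold change was 0.28 ± 0.09 SE (adjusted p = 0.0818). At 8 days Ugt1a7c stood at 48.5, 69.9 and 51.9 CPM in controls and at 52.1, 44.9, 46.6 and 55.5 CPM in libraries labelled mutant (-0.19 ± 0.13, adjusted p = 0.781). Of the 7 Ugt1a genes tested at 8 days, 6 had negative fold changes and Ugt1a1 was at 0.01.

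Ugt8a (ENSMUSG00000032854), which adds galactose to ceramide and is known best from myelin, showed the largest fold change of any member at 3 months, from very few reads. It had 2, 7, 1 and 7 counts in the controls and 27, 14, 29 and 14 counts in the libraries labelled mutant. As CPM these were 0.0696, 0.215, 0.0388 and 0.246 against 0.867, 0.462, 0.773 and 0.498. The groups did not overlap, and the log2 fold change was 2.13 ± 0.46 SE (adjusted p = 0.0273). Ugt8a reached the count filter only through the libraries labelled mutant, and it is not tested where 10 counts are required in every library. Leaving out 1 library ended the call in 5 of 8 cases (adjusted p 0.0597 to 0.0733), the exceptions being control 4, mutant 2 and mutant 4. At 8 days it had too few counts for a test: 4, 7 and 27 counts in controls and 2, 4, 0 and 31 counts in libraries labelled mutant. The 2 high libraries there, control 3 and mutant 4, were also those with Car1, a colon marker, at 161 and 434 CPM, against 0 to 0.924 CPM in the other 8-day libraries. Sult1a1, a phenol sulfotransferase named after its values were seen, was also highest there, at 13.3 and 20.9 CPM against 5.59 to 8.29 CPM in the others. Car1 is only 1 gene of the colon list. That whole list summed to 977 to 1290 CPM in 8-day controls and to 823 to 1450 CPM in 8-day libraries labelled mutant. Ang4, of the same list, stood at 306 CPM in control 3 and was lowest in mutant 4, at 196 CPM, with mutant 1 highest at 437 CPM. The part of colon tissue in these counts was not tested.

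Gsta3 (ENSMUSG00000025934), an alpha-class GST, stood at 18.1, 18.1, 12 and 17.4 CPM in 3-month controls. In the libraries labelled mutant it stood at 9.76, 9.08, 13.2 and 10.5 CPM. Control 3 lay below mutant 3, so the groups overlapped by that 1 pair, and the log2 fold change was -0.62 ± 0.16 SE (adjusted p = 0.0453). Leaving out 1 library ended the call in 6 of 8 cases (adjusted p 0.078 to 0.115), the exceptions being control 3 and mutant 3. At 8 days Gsta3 stood at 4.02, 6.69 and 6.84 CPM in controls and at 4.72, 5.96, 2.85 and 5.36 CPM in libraries labelled mutant (-0.31 ± 0.27, adjusted p = 0.847). Its level was lower in all 7 libraries of 8 days than in any library of 3 months.

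Sult1c2 (ENSMUSG00000023122, chromosome 17), a sulfotransferase of the phenol family, stood at 8.56, 6.14, 7.11 and 8.76 CPM in 3-month controls. In the libraries labelled mutant it stood at 5.85, 3.4, 4.61 and 4.52 CPM. The groups did not overlap, and the log2 fold change was -0.73 ± 0.18 SE (adjusted p = 0.0408). Leaving out 1 library ended the call in 7 of 8 cases (adjusted p 0.0603 to 0.104), the exception being mutant 1. At 8 days it stood at 4.92, 5.69 and 6.38 CPM in controls. The 8-day libraries labelled mutant split, with mutants 2 and 4 at 6.15 and 7.31 CPM and mutants 1 and 3 at 2.72 and 3.02 CPM (-0.24 ± 0.34, adjusted p = 0.931).

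**Figure D2:**
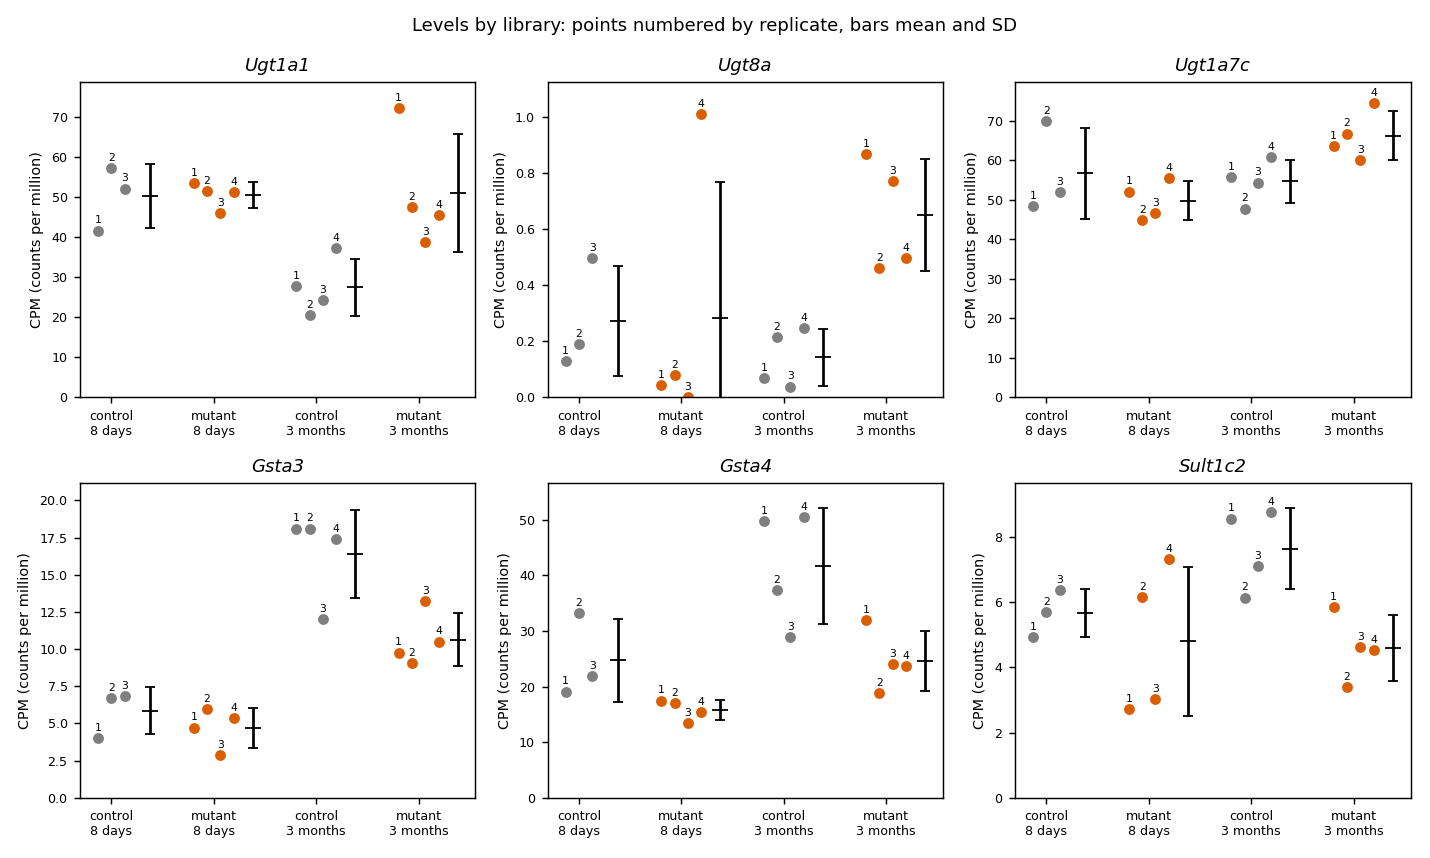
CPM of the 4 members called at 3 months and of Gsta4 and Ugt1a7c, by group. Points are libraries, numbered by replicate, and bars are mean and SD (cut at 0 for Ugt8a). Ugt1a1 is low in the 3-month controls (20.5 to 37.3 CPM) relative to the other groups, and Gsta3 is high there (12 to 18.1 CPM).

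Gsta4 (ENSMUSG00000032348, chromosome 9), whose enzyme conjugates 4-hydroxynonenal, a product of lipid peroxidation, was lower in libraries labelled mutant at both times without passing the test at either. It stood at 49.8, 37.3, 28.9 and 50.5 CPM in 3-month controls and at 31.9, 18.9, 24.1 and 23.7 CPM in libraries labelled mutant. The groups overlapped through control 3 and mutant 1, and the log2 fold change of -0.75 ± 0.20 SE missed the threshold (adjusted p = 0.0515). It passed in 7 of 19 alternative settings, over which the adjusted p ran from 0.00421 to 0.136. At 8 days it stood at 19.1, 33.2 and 21.9 CPM in controls and at 17.5, 17, 13.4 and 15.4 CPM in libraries labelled mutant. Those groups did not overlap, at -0.64 ± 0.18 (adjusted p = 0.46). That value rests largely on control 2 at 33.2 CPM, without which it was -0.37 ± 0.13 (adjusted p = 0.827). In a fit with 1 label effect common to both cohorts, Gsta4 was lower, with a log2 fold change of -0.71 ± 0.15 (adjusted p = 0.0212). It was the 1 member called of 39 tested. In that fit 3.24% of all genes were called.

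In all, 5 of the 38 members tested at 3 months had groups that did not overlap, against 19.2% of all genes tested. Besides Ugt1a1, Ugt8a and Sult1c2 these were Gstk1 and Ugt1a5, named after their values were seen. Gstk1, a GST of mitochondria and peroxisomes, stood at 6.09, 6.2, 7.22 and 8.27 CPM in controls. In libraries labelled mutant it stood at 15.3, 8.28, 8.64 and 11.4 CPM (0.65 ± 0.21 SE, adjusted p = 0.0762). Control 4 and mutant 2 differed by 0.01 CPM in it, so the separation is narrow.

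Gsto1, Gstp1 and the 3 SULT genes highest per kb passed the test at neither time. Gsto1 (ENSMUSG00000025068, chromosome 19), a thioltransferase of the omega class, stood at 291, 263, 263 and 291 CPM in 3-month controls and at 255, 248, 216 and 273 CPM in libraries labelled mutant. At 8 days it stood at 206, 277 and 253 CPM in controls and at 238, 217, 214 and 228 CPM in libraries labelled mutant. Its groups overlapped at both times, with log2 fold changes of -0.16 ± 0.08 SE (adjusted p = 0.224) at 3 months and -0.13 ± 0.10 (adjusted p = 0.819) at 8 days. Gstp1 (ENSMUSG00000060803, chromosome 19), of the pi class, stood at 41.5, 45.6 and 47.1 CPM in 8-day controls and at 44, 39.5, 32.5 and 41 CPM in 8-day libraries labelled mutant. At 3 months it stood at 39.4, 41.4, 38.3 and 42.5 CPM in controls and at 36.4, 35.6, 39.9 and 44.6 CPM in libraries labelled mutant. Groups overlapped at both times. Its log2 fold changes were -0.19 ± 0.10 (adjusted p = 0.687) at 8 days and -0.05 ± 0.08 (adjusted p = 0.733) at 3 months.

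Sult1d1 (ENSMUSG00000029273, chromosome 5), which sulfates catecholamines, stood at 178, 161, 179 and 227 CPM in 3-month controls and at 193, 165, 111 and 147 CPM in libraries labelled mutant. At 8 days it stood at 164, 219 and 157 CPM in controls and at 137, 180, 125 and 152 CPM in libraries labelled mutant. The groups overlapped, and the log2 fold change was -0.28 at both times (± 0.15 SE and adjusted p = 0.685 at 8 days, ± 0.16 and adjusted p = 0.296 at 3 months). Sult1b1 (ENSMUSG00000029269, chromosome 5), which sulfates phenols and thyroid hormone, stood at 132, 180 and 147 CPM in 8-day controls and at 169, 138, 152 and 134 CPM in 8-day libraries labelled mutant. At 3 months it stood at 198, 156, 187 and 211 CPM in controls and at 199, 205, 134 and 172 CPM in libraries labelled mutant. The groups overlapped at both times, with log2 fold changes of -0.04 ± 0.12 (adjusted p = 0.971) at 8 days and -0.08 ± 0.14 (adjusted p = 0.722) at 3 months. Sult2b1 (ENSMUSG00000003271, chromosome 7), the cholesterol sulfotransferase, stood at 112, 106 and 119 CPM in 8-day controls and at 116, 96, 113 and 96.4 CPM in 8-day libraries labelled mutant. At 3 months it stood at 91, 75.2, 89.6 and 90.4 CPM in controls and at 88.4, 89.9, 65.2 and 87.8 CPM in libraries labelled mutant. Its log2 fold changes were -0.09 ± 0.09 (adjusted p = 0.877) and -0.06 ± 0.11 (adjusted p = 0.733), and its 8-day range lay wholly above its 3-month range.

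Summed over a family, the groups overlapped at 3 months. The Ugt genes together held 561 to 795.5 CPM in 3-month controls and 571.4 to 757.3 CPM in libraries labelled mutant. The Gst genes held 500.2 to 590.2 and 479.1 to 553.1 CPM, and the Sult genes 409.4 to 553.9 and 327.7 to 497 CPM.

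At 8 days, 0 of the 40 members tested were called by edgeR, with DESeq2 and limma-voom also at 0, and 9 (22.5%) had an unadjusted p under 0.05. Over all 17493 genes tested, 0.0915% were called and 8.8% had an unadjusted p under 0.05. The members nevertheless leaned to lower values: 33 of the 40 had negative log2 fold changes, with a median of -0.20, against 50.7% of all genes tested and a median of 0.00. All 7 Gstm genes had negative values, from -0.13 to -1.45. In 3 of them (Gstm3, Gstm6 and Gstm7) mutants 2 and 4 were the lowest of the 7 libraries. Gstm6 stood at 2.54 and 1.85 CPM there, against 4.99 and 5.12 CPM in mutants 1 and 3 and 5 to 10.3 CPM in controls. Gstm7 stood at 1.58 and 1.76 CPM there, against 3.35 and 3.42 CPM in mutants 1 and 3 and 2.96 to 4.82 CPM in controls. Control 2 had the largest member total of the 7 libraries, 0.201% of its counts against 0.141 to 0.161% in the others. Without control 2 the lean was smaller, with 29 of 41 members negative and a median of -0.13. Log2 fold changes then stood at -0.03 for Gsto1, -0.11 for Sult1d1, 0.09 for Sult1b1 and 0.01 for Ugt2b34, the last 2 with their sign changed. Without mutants 2 and 4, a choice made after the data were seen, 33 of 40 were negative with a median of -0.22. No test of the lean was made, since members are not replicates.

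**Figure D3:**
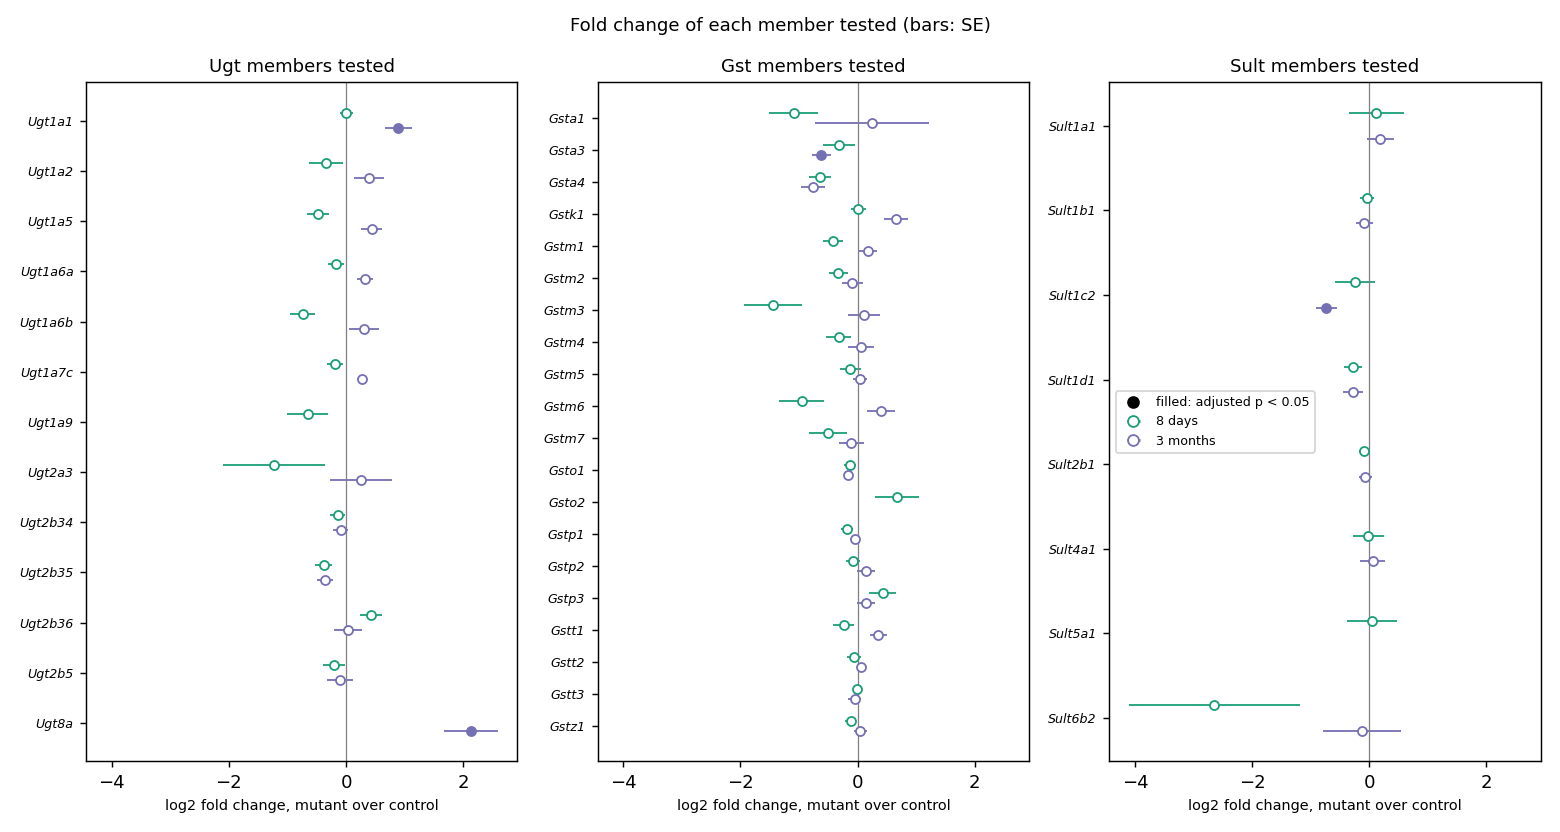
Log2 fold change, libraries labelled mutant over controls, with SE, for each member tested at 8 days (green) and 3 months (purple). Filled points passed the adjusted p threshold: Ugt1a1, Ugt8a, Gsta3 and Sult1c2 at 3 months. Most green points lie left of 0 (33 of 40), and purple points lie on both sides (15 of 38 negative).

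At 8 days, 3 members named after their values were seen spread widely between libraries, also within the group labelled mutant. Sult6b2 (ENSMUSG00000048473), a little-studied sulfotransferase, stood at 16.8, 36.8 and 0.644 CPM in the 8-day controls. In the 8-day libraries labelled mutant it stood at 6.48, 0, 4.99 and 0 CPM, and the 2 counts of 0 allow up to 0.0586 and 0.0975 CPM. Its log2 fold change of -2.64 had an SE of 1.46 (adjusted p = 0.695), so the difference between groups was within the spread of libraries. Ugt2a3 (ENSMUSG00000035780), a UGT of intestine and liver, stood at 12.4, 25 and 13.5 CPM in controls and at 12.1, 0.723, 14.9 and 1.2 CPM in libraries labelled mutant. Its highest library was 34.5-fold above its lowest (-1.23 ± 0.87 SE, adjusted p = 0.792). Gstm3 (ENSMUSG00000004038, chromosome 3), a mu-class GST, stood at 32.8, 43.7 and 17.7 CPM in controls and at 19.2, 4.71, 16.2 and 5.85 CPM in libraries labelled mutant (-1.45 ± 0.50, adjusted p = 0.47). The same 2 libraries, mutants 2 and 4, were lowest in each of these genes, and the other 2 libraries labelled mutant stood near or within the range of controls in Ugt2a3 and Gstm3.

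Of 9 markers of the proximal small intestine, 6 were lowest in mutants 2 and 4 as well (Gata4, Lct, Onecut2, Fabp1, Pdx1 and Slc2a2), and 3 were not (Slc40a1, Cybrd1 and Apoc3). Gata4, the transcription factor of jejunal identity, stood at 12.1, 24.5 and 20.7 CPM in 8-day controls and at 17.9, 0.625, 24.1 and 1.27 CPM in libraries labelled mutant. Lct, the lactase gene, stood at 282, 649 and 627 CPM and at 431, 3.46, 594 and 7.35 CPM. Onecut2 stood at 24.9, 44.7 and 9.03 CPM and at 13.9, 0.703, 21.2 and 0.618 CPM. By contrast, Slc40a1, an iron exporter gene, stood at 114 and 187 CPM in mutants 2 and 4, the latter the highest of the 7 libraries. Cybrd1 stood at 9.51 and 10.2 CPM there, with control 3 lower at 9.23 CPM, and Apoc3 at 40.1 and 63.4 CPM, with control 1 lower at 35.7 CPM. The whole list of 9 markers, to which Lct contributed the most counts in the other 5 libraries, summed to 644 to 1300 CPM in controls and to 235 to 1240 CPM in libraries labelled mutant, and Pdx1 had no count in mutants 2 and 4. Distal markers such as the bile acid carrier gene Fabp6 were present in all 7 libraries (1030 to 1970 CPM). The part of the sampled segment in the 8-day values of these members was not tested. Without mutants 2 and 4, the log2 fold change was -0.33 for Ugt2a3, -1.65 for Sult6b2 and -0.82 for Gstm3, with no call. At 3 months the same 3 members stood lower in controls than at 8 days, at 1.29 to 6.76 CPM for Sult6b2, 2.49 to 5.7 for Ugt2a3 and 4.04 to 5.95 for Gstm3, except for Sult6b2 in control 3 of 8 days. Gata4 was then at 1.63 to 3.66 CPM in controls.

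**Figure D4:**
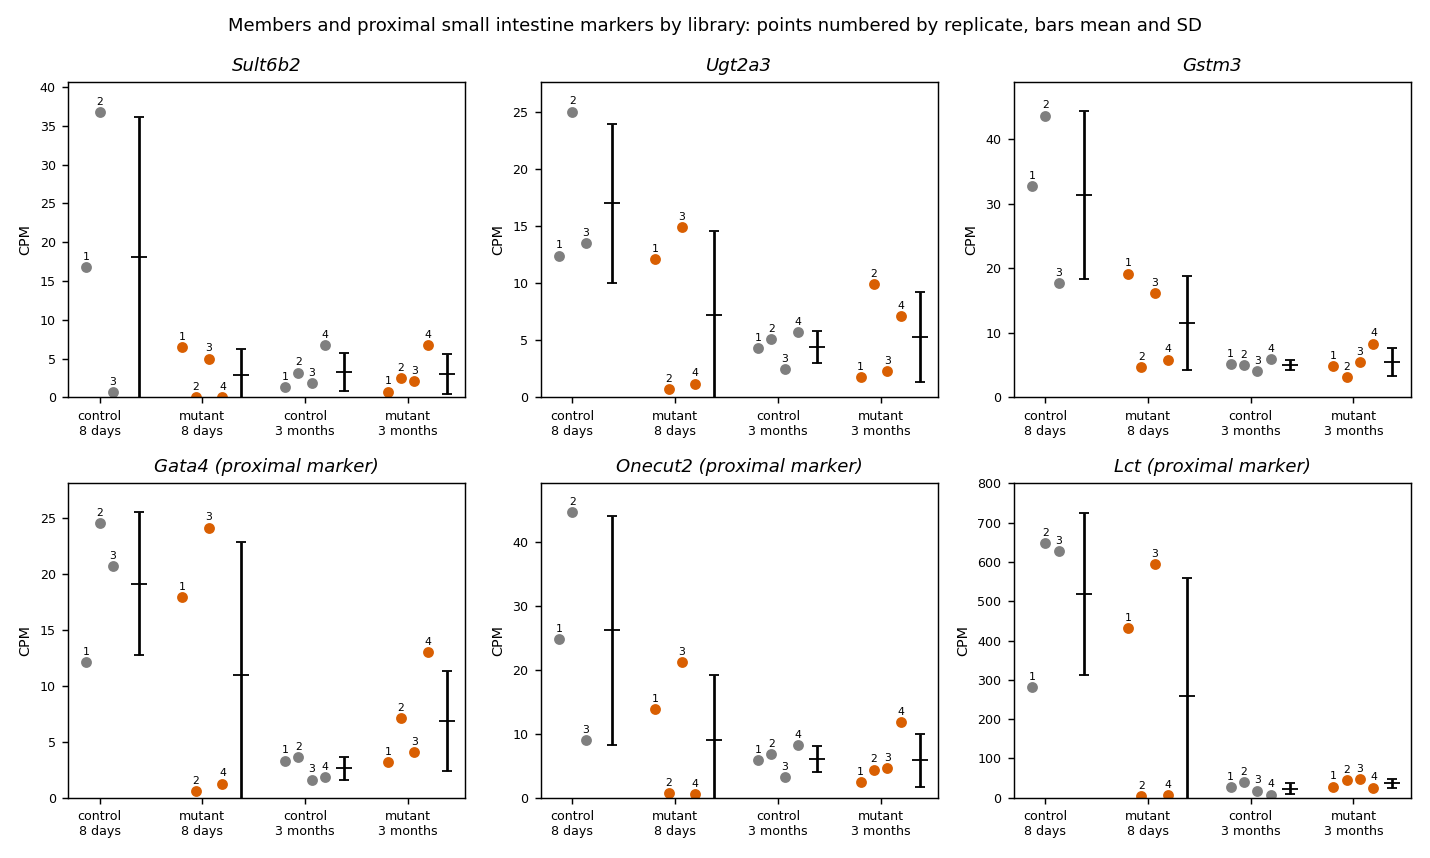
CPM of Sult6b2, Ugt2a3 and Gstm3 (top) and of the proximal markers Gata4, Onecut2 and Lct (bottom), by group. Points are libraries, numbered by replicate, and bars are mean and SD, cut at 0. In the 8-day group labelled mutant, replicates 2 and 4 lie near the axis in all panels but Gstm3, where they stand at 4.71 and 5.85 CPM, below the other 5 libraries of that time.

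Summed levels of 4 cell marker lists differed between the groups at 3 months, beside the calls of Ugt1a1, Ugt8a, Gsta3 and Sult1c2. The counts of markers called stand beside 4.96% of all genes tested called higher and 4.32% called lower. The 9 proximal markers summed to 122 to 180 CPM in controls and to 334 to 454 CPM in libraries labelled mutant, and 3 of 8 tested rose. Slc2a2 (3.24 to 5.71 and 44 to 113 CPM), Apoc3 (18.4 to 27 and 54.5 to 91.8) and Slc40a1 (54.3 to 77.7 and 79.3 to 131) did not overlap. The other proximal markers overlapped, among them Gata4 (1.63 to 3.66 and 3.15 to 13 CPM) and Onecut2 (3.26 to 8.2 and 2.47 to 11.9 CPM). The 7 goblet cell markers summed to 15900 to 18100 and 20500 to 22700 CPM, with 1 of 7 called higher. Muc2 (1320 to 1750 and 2390 to 3720 CPM), Clca1 (2730 to 3120 and 3430 to 4760) and Zg16 (1990 to 2710 and 2780 to 3780) did not overlap. Fcgbp, the most counted of the list, overlapped, as did Agr2 (525 to 623 and 421 to 741 CPM) and Spink4 (351 to 490 and 311 to 559 CPM). The 10 immune markers summed to 2480 to 3380 and 1420 to 1950 CPM, with 1 of 10 called lower. Jchain, a plasma cell gene, held most of that sum, at 2050 to 2890 and 1080 to 1640 CPM. Lyz2 did not overlap either (184 to 224 and 121 to 170 CPM). The other immune markers overlapped, among them Itgax (27.5 to 34.4 and 29.2 to 40.3 CPM) and Cd68 (6.44 to 7.46 and 6.53 to 9.2 CPM). The 11 smooth muscle and stromal markers summed to 2630 to 2920 and 2930 to 4910 CPM, a narrow separation, with 1 of 11 called higher. Col1a1 (76.4 to 99.7 and 102 to 184 CPM) and Pdgfra (97.7 to 111 and 132 to 206 CPM) did not overlap. The other markers of that list overlapped, among them Dcn (186 to 219 and 177 to 271 CPM). None of these 4 sums overlapped between the groups, and their part in the members' values was not tested. The distal ileum markers overlapped, at 4000 to 5080 and 2200 to 4470 CPM, with 2 of 7 tested called lower. Villus enterocyte markers overlapped, at 14800 to 17100 and 16700 to 25700 CPM, with 2 of 11 called higher. Pancreatic acinar markers were highest in control 4 (1500 CPM) and mutant 4 (451 CPM). Without those 2 libraries, a choice made after the data were seen, Ugt1a1 and Ugt8a were still called, and Gsta3 (-0.59, adjusted p = 0.119) and Sult1c2 (-0.66, adjusted p = 0.108) were not.

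The difference between the 2 times was tested as such over all 15 libraries. By edgeR 0 of 42 members passed, against 0.785% of all 17959 genes tested. Of the 42, 10 (23.8%) had an unadjusted p under 0.05, against 16.6% of all genes. DESeq2 called 1 (Ugt1a1), where it called 5.66% of all genes, and limma-voom 0. The smallest adjusted p was that of Ugt1a5, at 0.0771, with a difference of 0.90 ± 0.24 SE. Ugt1a5 stood at 1.06, 1.03 and 1.34 CPM in 8-day controls and at 0.877, 0.762, 0.849 and 0.813 CPM in 8-day libraries labelled mutant. At 3 months it stood at 0.835, 0.952, 0.816 and 0.915 CPM in controls and at 1.03, 0.99, 1.47 and 1.28 CPM in libraries labelled mutant. Its log2 fold changes passed at neither time (-0.48 ± 0.19, adjusted p = 0.495, and 0.44 ± 0.18, adjusted p = 0.15). Its groups did not overlap at either time, in opposite directions, at about 1 CPM and within a cluster of shared exons. Ugt1a1 differed between the times by 0.87 ± 0.28 (adjusted p = 0.12). All 7 Ugt1a genes tested had a positive difference, 5 of them with an unadjusted p under 0.05, in genes that share exons. For Gsta3 (-0.33 ± 0.33, adjusted p = 0.671), Sult1c2 (-0.51 ± 0.41, adjusted p = 0.582) and Gsta4 (-0.13 ± 0.30, adjusted p = 0.883), the values at the 2 times were not shown to differ.

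The 3-month controls held 2 genotypes. Between the Rfx6f/+ and Rfx6f/f controls, edgeR called 0 of 42 members and 0 of 17780 genes (0%). DESeq2 and limma-voom called 0 members as well, and 5 members and 1220 genes had an unadjusted p under 0.05. With 2 libraries of each genotype, 36 of the 42 members had lower values in Rfx6f/+ (median -0.26, against 0.00 over all genes tested). Ugt1a1 differed by -0.54 on the log2 scale (adjusted p = 0.75), with 27.8 and 37.3 CPM in Rfx6f/f and 20.5 and 24.4 CPM in Rfx6f/+. Gsta4 differed by -0.60 (adjusted p = 0.678). Against the Rfx6f/f controls alone, 0 of 42 members tested were called at 3 months, with 0.205% of all genes called in that smaller fit.

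The pathway around these enzymes was read from 11 lists. Each count of a list at 3 months stands beside 9.28% of all genes tested called (4.96% higher and 4.32% lower). The counts of genes that supply the donors were not tested against that share. Of the 4 genes for UDP-glucuronic acid supply, 0 were called at either time, and of the sulfate activation genes 0 of 8 tested at 8 days and 0 of 7 at 3 months. Of 12 genes of glutathione synthesis and recycling, 2 rose at 3 months: Gclm, the modifier subunit of the rate-limiting enzyme, by 0.48 ± 0.11 (adjusted p = 0.0325), and Gpx4, which reduces lipid hydroperoxides, by 0.44 ± 0.10 (adjusted p = 0.0286). Of the genes that process glutathione conjugates to mercapturates, 0 of 11 tested were called at either time.

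Among the 7 pumps that export conjugates, 1 rose and 2 fell at 3 months, and 0 passed at 8 days. Abcc2 (MRP2), which exports glucuronides and glutathione conjugates into the gut lumen, stood at 26.6, 32, 25.9 and 35.4 CPM in 3-month controls and at 116, 57.9, 70.3 and 111 CPM in libraries labelled mutant. Its log2 fold change was 1.57 ± 0.23 SE (adjusted p = 0.00878), and at 8 days it stood at 122 to 144 CPM in controls and 133 to 216 CPM in libraries labelled mutant. As with Ugt1a1, the 3-month controls were the low group. Abcc3 (MRP3), which exports conjugates towards the blood, fell by 0.87 ± 0.17 (adjusted p = 0.0212). It stood at 265, 237, 222 and 142 CPM in controls and at 124, 121, 125 and 104 CPM in libraries labelled mutant. Abcg2 (BCRP), a pump of the luminal membrane that exports sulfates among other compounds, fell by 0.54 ± 0.14 (adjusted p = 0.0497). It stood at 564, 521, 580 and 581 CPM in controls and at 472, 438, 349 and 288 CPM in libraries labelled mutant. Of 3 deconjugating hydrolases measured, Arsa, arylsulfatase A, rose by 0.53 ± 0.08 (adjusted p = 0.00952).

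Of the lists of receptor targets, that of AHR had the largest share of calls at 3 months, with 4 of 5 tested genes higher and 0 lower. Over all genes tested, 4.96% were called higher and 4.32% lower. Cyp1a1, the classical AHR target, stood at 0.974, 1.66, 1.71 and 2.99 CPM in controls and at 8.22, 3.17, 8.34 and 14.6 CPM in libraries labelled mutant (2.22 ± 0.47 SE, adjusted p = 0.0257). Cyp1b1 rose by 0.80 ± 0.12 (adjusted p = 0.00904), Ahrr, the AHR repressor, by 0.62 ± 0.14 (adjusted p = 0.0304), and Tiparp by 0.33 ± 0.07 (adjusted p = 0.0286). At 8 days 0 of 6 were called. The AHR core letters were in the region printed for Ugt8a and not in that for Ugt1a1, which says nothing of binding outside these 250 bases.

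Of 16 NRF2 targets, 2 rose at 3 months (Gclm and Me1, the latter by 1.56 ± 0.33 SE, adjusted p = 0.027). The regulator genes themselves moved in small steps: Nfe2l2, which encodes NRF2, rose by 0.35 ± 0.07 (adjusted p = 0.0226), and Keap1, its inhibitor, fell by 0.24 ± 0.05 (adjusted p = 0.0221), the other 13 of the 15 receptors and regulators not passing. Of 8 PXR and CAR targets, 1 rose (Ces2c, a carboxylesterase, by 0.996 ± 0.15, adjusted p = 0.0103). Of 13 other conjugating enzymes tested, 1 rose (Ltc4s, leukotriene C4 synthase, by 0.73 ± 0.17, adjusted p = 0.0367). None of the genes of these 11 lists was called at 8 days. For the difference between times, Keap1 passed (-0.33 ± 0.07, adjusted p = 0.0487), and no other gene of the lists did.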

How the data were processed

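Libraries were made from total RNA with a Ribo-Zero kit, per the labels' protocols, though the molecule label names polyadenylated RNA. RNA was extracted by either of 2 methods, and the labels do not say which sample had which. The authors deposited raw read counts per Ensembl gene, 1 table per time. The submitters' processing notes name bcl2fastq 2.17.1.14, Bowtie 1.0.0, Bowtie2 2.1.0, TopHat2 2.0.10, HTSeq 0.6.1 and the build mm9. Their roles, the annotation, strand handling and counting mode are not given in the sources used here, so overlapping and antisense genes cannot be told apart with certainty.

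Symbols, exon lengths and overlaps came from GENCODE M21 on GRCm38, which named 87.45% of the identifiers (32897 of 37620). Of 65 symbols that fit the rule, 2 (Ugt2a1 and Sult2a7) were not analysed here. Start regions came from RefSeq.

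Each time was fitted alone with edgeR 4.0.16 (R 4.3.3, limma 3.58.1), using filterByExpr with a minimum count of 10, TMM scaling and the quasi-likelihood F test, two-sided. P-values were Benjamini-Hochberg adjusted over all genes tested, and genes were called under 0.05. CPM use the TMM-scaled library size of that time. Errors of fold changes are SE. The difference between times was the interaction contrast in a fit with 4 group means, and control genotypes were compared in a fit with 3. The test was also tried on simulated counts with known changes, built from the levels and spread of these data. Groups came from the genotype and time labels, and replicates were numbered in deposit order. Within groups the counts of any 2 libraries differed beyond sampling noise (lowest chi-square per degree of freedom 11.3), so each counts once.

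Alternatives were DESeq2 1.42.0, limma-voom, edgeR without its legacy mode, RLE scaling, totals without the 20 most counted genes, no filter, 10 counts in every library, each library left out, Rfx6f/f controls only, a joint fit, a common label effect and a log2 fold change of at least 1. Leaving out mutants 2 and 4 at 8 days, or control 4 and mutant 4 at 3 months, was added after seeing the data. Members given in full were those called and the 3 highest per kb in each family. Gstk1, Gstm3, Gstm6, Gstm7, Sult1a1, Sult6b2, Ugt1a5, Ugt2a3 and the members named for shared sequence were chosen after their values were seen. The members, gene lists and tests were chosen with earlier results of these data known. Figures used matplotlib 3.10.9.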

Additional observations from a re-analysis of the deposited data

Results flagged for a closer look

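In groups of 4 libraries, the highest or lowest library was set against the others by Dixon's test over 17 members (51 groups). Chance marks about 1 group in 20, and 4 were marked. Gsta3 was lowest in control 3 of 3 months, at 12 CPM against 17.4 to 18.1 in the other controls. Sult2b1 was lowest in control 2 of 3 months, at 75.2 CPM against 89.6 to 91, and in mutant 3 of 3 months, at 65.2 CPM against 87.8 to 89.9. Ugt8a was highest in mutant 4 of 8 days, at 1.01 CPM against 0 to 0.0781 in the other libraries labelled mutant.

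Ugt1a5 had log2 fold changes of opposite sign at the 2 times, neither past the threshold, with -0.48 at 8 days (adjusted p = 0.495), 0.44 at 3 months (adjusted p = 0.15) and no overlap between groups at either time. The test of the difference gave an adjusted p of 0.0771 in edgeR.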

How the results depend on the processing

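The 4 calls among the members at 3 months were sensitive to the setting. DESeq2 called 7 members, where it called 17.5% of all genes. Comparison with Rfx6f/f controls alone called 0, with 0.205% of all genes. A common label effect called 1 (Gsta4; 3.24% of all genes), a log2 fold change of at least 1 also 1 (Ugt8a; 2%), and leaving out control 4 and mutant 4 called 2 (6.36%). Leaving out each library in turn called 0 to 2 members and 2.25 to 8.77% of all genes. Scaling by totals without the 20 most counted genes lost Gsta3 (adjusted p = 0.0661), so that 2 of 3 calls were higher instead of 2 of 4. The joint fit called 3 (12.6% of all genes), of which Gsta4 and Gstk1 were not among the 4. limma-voom (9.49% of all genes), RLE scaling (9.21%) and edgeR without its legacy mode (9.67%) called the same 4 genes. Adjusted p over 19 alternatives ranged from 0.00127 to 0.272 for Ugt1a1, 0.00485 to 0.129 for Gsta3 and 0.00282 to 0.17 for Sult1c2, and over 18 from 0.00301 to 0.462 for Ugt8a, with no change of sign in any. At 8 days and between control genotypes 0 members were called under every alternative run. For the difference between times DESeq2 called 1 (Ugt1a1; 5.66% of all genes) and the other alternatives 0. No scaling moved the median of all genes by more than 0.0245 on the log2 scale.

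No paired analysis was possible because the groups compared within a time share no number in their sample titles, and no label says what those numbers mark. Depth limits members under 3 counts, including the 14 at or under that floor in every library, and the low counts of Ugt8a.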
